A study of Mus musculus with 16 samples.

Results

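The nuclear-encoded subunits of the oxidative phosphorylation (OXPHOS) system were compared between 2 subsets of tumor-associated macrophages (TAMs). Members were the protein-coding genes on nuclear chromosomes whose symbols start with Nduf, Uqcr, Cox4 to Cox8 or Atp5, together with the 4 Sdh subunits and Cyc1. The rule used names only and no measured value. It gave 99 of the 55604 genes counted per lane, of which 87 were subunits (36 of complex I, 4 of complex II, 9 of complex III, 20 of complex IV and 18 of complex V) and 12 were assembly factors (Ndufaf and Sdhaf genes), which were kept apart. A further 13 genes had matching names but were pseudogenes or noncoding RNAs and were left out. Ndufa4 and its paralog Ndufa4l2 carry complex I names, but the Ndufa4 protein is a part of complex IV, so both were placed there.

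Complexes I and II pass electrons from NADH and succinate to ubiquinone, complex III passes them on to cytochrome c, and complex IV hands them to oxygen. Complexes I, III and IV pump protons across the inner mitochondrial membrane, and complex V (ATP synthase) uses the proton gradient to make ATP. Complex II is built only from nuclear genes, whereas the other 4 complexes combine nuclear subunits with proteins encoded in mitochondrial DNA, so that 2 genomes have to supply them together. In macrophages, reliance on OXPHOS is well known to differ between activation states.

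The TAMs came from the peritoneal cavity of C57BL/6 mice bearing ID8 tumors, a mouse ovarian cancer cell line that grows in the peritoneum. Per the study's methods, the mice used were female and 6 to 8 weeks old. The study took the sequenced TAMs weeks into tumor growth, and the age of the mice at that time is not given. The sample labels name no altered gene in either group. Tim-4+ TAMs, which carry the phosphatidylserine receptor Tim-4 (gene Timd4), were taken with anti-Tim-4 microbeads, and Tim-4- TAMs were then enriched from the remaining cells with anti-F4/80 microbeads, so the subsets also differ in the antibody that selected them. Each subset had 4 libraries that carry the pair numbers 793, 784, 783 and 779, and each library was sequenced in 2 lanes that were summed (n = 4 per subset). The pair numbers are those of the labels. A table of the study carries the same libraries with the numbers in reverse order in both subsets, which would rename the pairs but leave the same libraries paired. The labels do not say whether a pair number is 1 mouse or a pool of mice.

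Each Tim-4+ library held 53527928 to 57768202 counts on genes, and each Tim-4- library 55618306 to 69594245. At this depth 3 counts, taken as the floor, corresponded to 0.0382 to 0.0630 CPM (counts scaled to a common library size with TMM factors), which covers counting error only. Timd4 averaged 1148 ± 498 CPM in the Tim-4+ libraries and 30.1 ± 37.5 CPM in the Tim-4- libraries (SD, n = 4). The macrophage markers Adgre1, Csf1r, Cd68, Mertk, Itgam and Mrc1 were read in every library. Of these, Adgre1, Cd68, Mertk and Itgam were called higher and Mrc1 lower in Tim-4+ TAMs, and with Timd4 the list summed to 9223 to 11390 CPM in Tim-4+ and 4349 to 6270 CPM in Tim-4- libraries. Markers of tumor and mesothelial cells (Krt7, Krt8, Krt18, Krt19, Epcam, Msln, Upk3b and Wt1) were called lower in Tim-4+ TAMs for 8 of 8 genes, with summed levels of 106 to 390 CPM in Tim-4+ and 412 to 1937 CPM in Tim-4- libraries, and none of the 8 was at 0. Of 8 cycling genes, 4 were called lower in Tim-4+ TAMs, with sums of 315 to 547 and 527 to 661 CPM. Of all 16861 genes tested, 8.97% were called higher and 8.43% lower. Summed markers of B cells reached at most 17.9 CPM, of T cells 3.35 CPM, of dendritic cells 17.5 CPM and of eosinophils and mast cells 8.07 CPM in any library. The granulocyte list summed to 252 to 369 CPM in Tim-4+ and 86.8 to 191 CPM in Tim-4- libraries, nearly all of it Csf3r, while Ly6g averaged 0.0216 CPM. In bulk libraries, fewer cells of a type and less RNA per cell cannot be told apart.

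The comparison asked whether the nuclear part of the OXPHOS system differs in RNA level between Tim-4+ and Tim-4- TAMs. Most subunits differed little. Of the 78 subunits with enough counts to test (10 or more in 4 or more of the 8 libraries), 7 passed an adjusted p of 0.05 in edgeR's quasi-likelihood test with the pair as a block, against 17.4% of all 16861 genes tested. Cox7a2l, counted under complex IV by its symbol, was the 1 subunit called higher in Tim-4+ TAMs, where 8.97% of all genes were called higher. The 6 called lower, where 8.43% of all genes were, were Atp5e, Atp5g3 and Atp5j2 of complex V, Uqcr10 of complex III, Ndufc1 of complex I and Cox7a1 of complex IV. Only Cox7a1 also reached a 2-fold difference, a size that 9.59% of all genes reached together with an adjusted p under 0.05. Its call ended when the lane listed by gene symbols was left out (log2 -0.996, edgeR adjusted p = 0.0646). Before adjustment, 22 of 78 subunits had a p under 0.05 (13 higher and 9 lower), against 33.6% of all genes.

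The median log2 fold change (Tim-4+ over Tim-4-) was -0.03 for complex I, -0.07 for complex II, -0.05 for complex III, 0.04 for complex IV, -0.05 for complex V and -0.15 for the assembly factors, beside 0.00 for all genes tested. The size of the log2 fold change was under 0.5 for 92.3% of the subunits and 63.2% of all genes. The median half-width of the 95% interval of a subunit's log2 fold change was 0.30, and for 73 of 78 subunits (93.6%) the whole interval lay within a 2-fold difference in either direction, compared with 54.4% of all genes. Levels of the 2 subsets did not overlap for 2 subunits that were higher in Tim-4+ TAMs (Ndufb10 and Sdha, neither of them called) and 7 that were lower, among them Ndufa9, Ndufc1, Ndufv1, Uqcr10, Atp5e and Atp5g3, where 6.84% and 5.92% of all genes did the same. All 4 pairs pointed to the same direction for 14 subunits that were higher and 13 that were lower, against 22.4% and 20.2% of all genes.

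**Figure D1:**
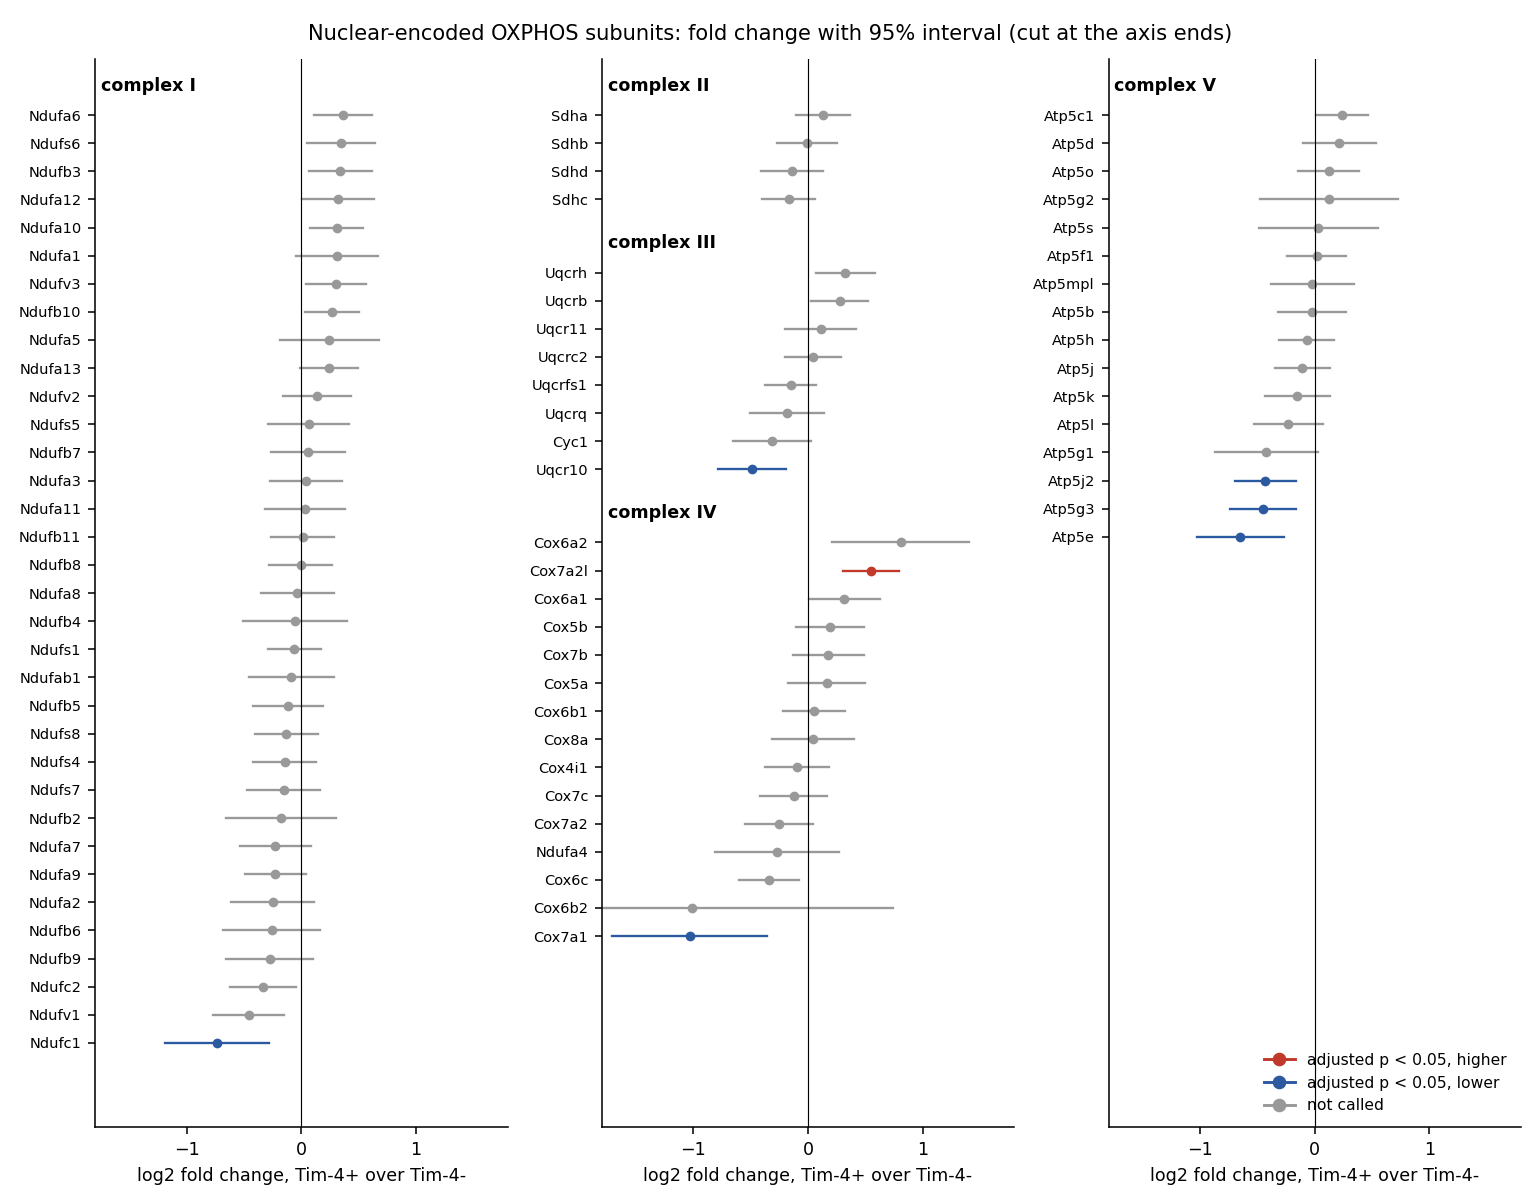
Log2 fold change of the tested subunits, 1 not drawn (points, Tim-4+ over Tim-4-) with its 95% interval (lines), by complex. The 7 called subunits are colored, 1 in red (higher) and 6 in blue (lower), and the others drawn lie within 0.5 of 0, apart from the low-level isoforms Cox6a2 and Cox6b2 (whose interval is cut at the axis end).

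Cox7a2l encodes a relative of the Cox7a subunit. It lies on chromosome 17 (83501918 to 83517330, minus strand, GRCm38). In Tim-4+ TAMs it stood at 216, 150.3, 186 and 266 CPM in pairs 793, 784, 783 and 779, and in Tim-4- TAMs at 155, 93.7, 139 and 174 CPM. The 2 groups overlapped, but Tim-4+ was the higher member of all 4 pairs. The fold was 1.46 (log2 0.55 ± 0.11, SE, 95% interval 0.30 to 0.79, edgeR adjusted p = 0.0158). Of its 50-base exon words, 13.8% also occur in another gene, so that reads from these stretches could have been set aside as not unique.

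Atp5e encodes the small epsilon subunit in the central stalk of ATP synthase (chromosome 2, 174461072 to 174464105, minus strand). It was read at 45.6, 46.3, 33.4 and 44.6 CPM in Tim-4+ TAMs and at 68.9, 49.1, 58.7 and 95.4 CPM in Tim-4- TAMs of the same pairs. Every Tim-4+ library was below every Tim-4- library, although pair 784 was separated by little. The log2 fold change was -0.65 ± 0.16 (95% interval -1.03 to -0.27, edgeR adjusted p = 0.0352). Atp5g3, 1 of 3 genes for the c subunit that forms the rotor ring in the membrane (chromosome 2, 73908447 to 73911326, minus strand), stood at 77.4, 84.5, 72.8 and 77.3 CPM in Tim-4+ and 89.6, 108, 97.5 and 137 CPM in Tim-4- TAMs (log2 -0.45 ± 0.12, edgeR adjusted p = 0.0424), and its groups did not overlap. Atp5j2, a small membrane subunit (f) of the same enzyme (chromosome 5, 145183698 to 145192062, minus strand), stood at 46.4, 49.1, 41.7 and 55.8 CPM against 54.9, 58.9, 60.6 and 89.5 CPM (log2 -0.43 ± 0.11, edgeR adjusted p = 0.0383). For Atp5j2 the Tim-4+ library of pair 779 lay above the lowest Tim-4- library.

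Uqcr10 encodes a small subunit of complex III (chromosome 11, 4701973 to 4704342, minus strand). It was read at 31.5, 32.6, 26.3 and 37.1 CPM in Tim-4+ TAMs and at 38.1, 40.0, 37.6 and 67.4 CPM in Tim-4- TAMs. The groups did not overlap, and 3 of the 4 Tim-4- libraries lay within 3 CPM of each other while that of pair 779 stood apart. The log2 fold change was -0.49 ± 0.13 (95% interval -0.78 to -0.19, edgeR adjusted p = 0.0378). Ndufc1, an accessory membrane subunit of complex I (chromosome 3, 51404677 to 51408988, minus strand), was read at 12.5, 12.4, 10.5 and 9.75 CPM in Tim-4+ and at 16.0, 15.4, 20.3 and 24.4 CPM in Tim-4- TAMs. For this gene the log2 fold change was -0.73 ± 0.20 (95% interval -1.19 to -0.28, edgeR adjusted p = 0.0395), with no overlap. Cox7a1, the heart and skeletal muscle form of the Cox7a subunit (chromosome 7, 30184144 to 30186078, plus strand), stood far lower, at 1.62, 1.76, 2.43 and 1.46 CPM in Tim-4+ and 1.87, 3.40, 6.18 and 4.39 CPM in Tim-4- TAMs (log2 -1.03 ± 0.29, 95% interval -1.71 to -0.35, edgeR adjusted p = 0.0478). Its groups overlapped through the low Tim-4- library of pair 793.

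**Figure D2:**
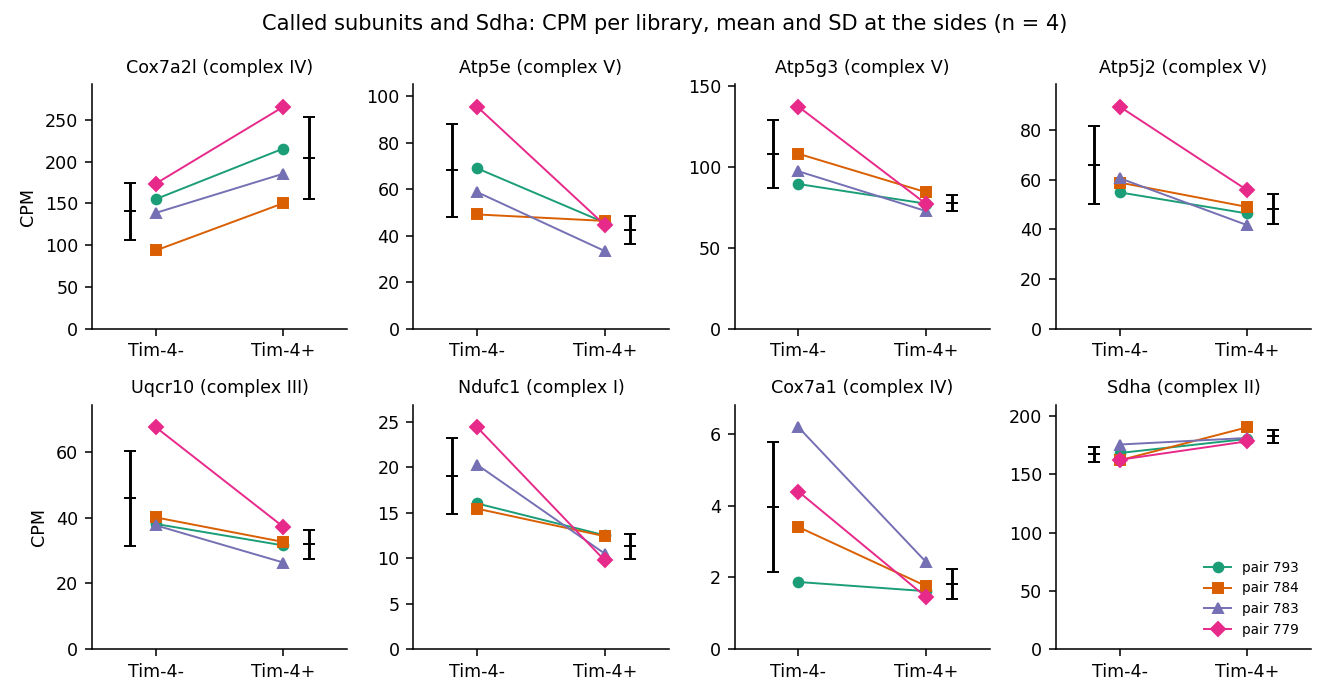
CPM per library of the 7 called subunits and, for comparison, Sdha, with lines joining the libraries of a pair and the mean and SD (n = 4) at the sides. Cox7a2l rises in all 4 pairs, and in 5 of the other 6 called subunits the highest Tim-4- value is that of pair 779.

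These calls depended on the pairs. Without pair 784, and likewise without pair 779, edgeR called 0 of the subunits tested in those fits, where 17 and 26 had an unadjusted p under 0.05 (no other tool was run on those subsets). The share of all genes called fell as well, to 0.927% without pair 784 and 4.8% without pair 779. Without pair 784 the log2 fold changes of Atp5e and Ndufc1 were -0.84 and -0.88. Without pair 793, 1 subunit was higher (Cox7a2l) and 1 was lower (Cox7a1), with 7.74% of all genes called. Without pair 783, 1 was higher (Cox7a2l) and 2 were lower (Ndufv1 and Atp5e), with 21.4% of all genes called. Without the pair block, edgeR called 0 subunits (9 with an unadjusted p under 0.05), and 1.38% of all genes were. Tumor and mesothelial markers were lower in Tim-4+ TAMs as the 6 subunits were. Of these markers 8 of 8 were called lower, where 8.43% of all genes were. Their summed levels did not overlap (106 to 390 against 412 to 1937 CPM), and their part in the result was not tested.

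The scaling set the direction of the smaller differences. With total counts in place of TMM factors, the median of all genes moved to a log2 fold change of -0.36, and 35 of the 78 subunits were called lower and 0 higher (43 with an unadjusted p under 0.05), where 29.1% of all genes were called lower. The subunit median was then -0.39, that is, close to the shift of all genes, and the 35 were spread over complexes I (14 of 35), II (3 of 4), III (4 of 8), IV (5 of 15) and V (9 of 16). Relative to all genes, the subunits as a group were therefore near 0 under both scalings. Cox7a2l was not called under total counts.

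To show where the called genes start, 150 bases just upstream of the RefSeq start (GRCm38.p6) are printed for Cox7a2l, the subunit called higher, for Atp5e and Atp5g3, which hold a core searched here, and for Ndufc1. For Cox7a2l the stretch printed lies within the gene span given above, and those of Ndufc1 and Atp5e reach into theirs, as the RefSeq start differs from the end of the span. The cores were CGCATGC (NRF1), CCGGAAG (ETS factors such as GABPA), AAGATGG (YY1), AAGGTCA (estrogen-related receptors) and ACGTG (hypoxia response), read on both strands; none contains another. These factors are textbook regulators of nuclear OXPHOS genes. Capitals mark a core, and all 4 sequences are on the minus strand, written 5′ to 3′.
Cox7a2l, chr17:83514334-83514483: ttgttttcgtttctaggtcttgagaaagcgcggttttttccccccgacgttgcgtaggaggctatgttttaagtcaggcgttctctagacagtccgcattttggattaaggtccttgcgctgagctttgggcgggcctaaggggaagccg
Atp5e, chr2:174464102-174464251: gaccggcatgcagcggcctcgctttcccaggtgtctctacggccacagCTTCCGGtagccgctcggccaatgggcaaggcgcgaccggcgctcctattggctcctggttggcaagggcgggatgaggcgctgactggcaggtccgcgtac
Atp5g3, chr2:73911327-73911476: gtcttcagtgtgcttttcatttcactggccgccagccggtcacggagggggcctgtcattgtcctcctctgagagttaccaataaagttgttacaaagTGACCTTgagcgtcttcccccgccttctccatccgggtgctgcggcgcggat
Ndufc1, chr3:51408956-51409105: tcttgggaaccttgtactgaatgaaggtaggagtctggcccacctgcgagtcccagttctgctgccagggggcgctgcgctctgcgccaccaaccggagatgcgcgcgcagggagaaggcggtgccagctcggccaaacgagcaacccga

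The ETS core of Atp5e begins 102 bases before the start, and the estrogen-related receptor core of Atp5g3 begins 52 bases before it. The 150 bases were rich in G and C for Atp5e (68.0%) and Ndufc1 (64.7%), with 15 and 12 CG pairs, and less so for Cox7a2l (52.0%, 11 CG pairs). RefSeq promoters (250 bases before to 50 after a start) were matched for 67 of the 87 subunits. The NRF1 core was found in 11 of the 67 (16.4%) and in 4.01% of all 27025 genes with a promoter, and the ETS core in 16 (23.9%) and 9.93%. For the YY1 core the counts were 10 (14.9%) and 7.28%, for the estrogen-related receptor core 8 (11.9%) and 5.38%, and for the hypoxia core 16 (23.9%) and 21.8%. Of the 7 called subunits, 0 held the NRF1 core, 1 the ETS core, 2 the YY1 core, 2 the estrogen-related receptor core and 2 the hypoxia core in the whole window. A match is a description of the letters and not a binding site.

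Complex II, which oxidizes succinate both in the citric acid cycle and in the electron transport chain, had 4 fitted log2 fold changes between -0.17 and 0.13. Sdha, its flavoprotein, was read at 180.5, 190.5, 181 and 178 CPM in Tim-4+ and at 168, 162, 176 and 163 CPM in Tim-4- TAMs. Every Tim-4+ library was above every Tim-4- library, yet the difference was small (fold 1.09, log2 0.13, 95% interval -0.11 to 0.36, edgeR adjusted p = 0.423). Sdhb, the iron-sulfur subunit, stood at 66.4, 69.4, 65.6 and 66.0 CPM in Tim-4+ and at 67.6, 56.0, 74.4 and 72.6 CPM in Tim-4- TAMs, with a log2 fold change of -0.01 and a 95% interval of -0.27 to 0.26. The membrane anchors Sdhc and Sdhd had log2 fold changes of -0.17 (95% interval -0.40 to 0.06) and -0.14 (95% interval -0.41 to 0.13), and both groups of each overlapped. edgeR and DESeq2 each called 0 of the 4 genes, where they called 17.4% and 26.8% of all genes. None of the 4 had an unadjusted p under 0.05 in edgeR, against 33.6% of all genes. The intervals of all 4 therefore lay within a 2-fold difference.

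Of the 35 complex I subunits tested, 16 had a log2 fold change above 0 and 1 (Ndufc1) was called by edgeR. DESeq2 with the pair called 4, adding Ndufa6 and Ndufa10 as higher and Ndufv1 as lower, where it called 26.8% of all genes. The 3 with the largest values among those that averaged 10 CPM or more were Ndufa6 (0.36, 95% interval 0.11 to 0.62, edgeR adjusted p = 0.0584), Ndufs6 (0.35, 95% interval 0.05 to 0.64) and Ndufb3 (0.34, 95% interval 0.07 to 0.62), accessory subunits with 4 of 4 pairs higher in Tim-4+ TAMs. Ndufa6, of the LYR family, was read at 52.8, 38.8, 53.8 and 63.8 CPM in Tim-4+ and 38.9, 28.5, 38.2 and 60.6 CPM in Tim-4- TAMs, with the smallest gap in pair 779. At the other end, after Ndufc1, stood Ndufv1 (-0.46, 95% interval -0.77 to -0.15, edgeR adjusted p = 0.0524) and Ndufc2 (-0.33, 95% interval -0.62 to -0.05), both lower in 4 of 4 pairs. Ndufv1, which binds NADH and the flavin where electrons enter the complex, stood at 47.2, 50.2, 50.1 and 51.0 CPM in Tim-4+ and at 61.8, 65.1, 56.2 and 95.2 CPM in Tim-4- TAMs, with no overlap. Ndufc1 and Ndufc2, neighbors in the membrane arm, both had negative values, and Ndufc2 was not called (edgeR adjusted p = 0.103).

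Of the 8 complex III subunits tested, 4 had a log2 fold change above 0. Uqcrh, the hinge protein, had the largest value (0.32, 95% interval 0.07 to 0.58, edgeR adjusted p = 0.0832), with 107, 89.3, 95.2 and 119 CPM in Tim-4+ and 73.3, 65.3, 85.5 and 108 CPM in Tim-4- TAMs. Uqcrb, a small matrix-side subunit, followed (0.28, 95% interval 0.03 to 0.53). At the low end, next to Uqcr10, stood Cyc1, the heme-bearing cytochrome c1, with 57.2, 72.0, 46.8 and 46.2 CPM in Tim-4+ and 65.6, 66.6, 62.0 and 78.7 CPM in Tim-4- TAMs (log2 -0.31, 95% interval -0.66 to 0.03, edgeR adjusted p = 0.178). Pair 784 pointed upward for Cyc1 and the other 3 pairs downward. Uqcr10 and Uqcrh thus had fitted values on opposite sides of 0 within 1 complex, and that difference between the genes was not tested.

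Complex IV contains pairs of subunits that differ by tissue, and in TAMs the widely expressed form had the higher level, also per kilobase of exon, in each such set named here. Cox4i1 averaged 186 ± 16.7 CPM in the Tim-4+ and 201 ± 43.4 CPM in the Tim-4- libraries (SD, n = 4), whereas its lung and hypoxia form Cox4i2 was at most 0.140 CPM. Cox6a1 stood at 189, 219, 187 and 232 CPM in Tim-4+ and 138, 155, 139.5 and 251 CPM in Tim-4- TAMs (log2 0.32, 95% interval 0.00 to 0.63, edgeR adjusted p = 0.143). Its muscle form Cox6a2 was read at 2.02, 1.90, 4.46 and 1.54 CPM in Tim-4+ and 1.09, 1.28, 2.27 and 0.875 CPM in Tim-4- TAMs, with the higher value in Tim-4+ in all 4 pairs (log2 0.81, 95% interval 0.21 to 1.41, edgeR adjusted p = 0.0669). Cox6b1 had a log2 fold change of 0.05 (95% interval -0.22 to 0.32), and the testis form Cox6b2 lay between 0.0200 and 0.457 CPM. Cox7a2 had a log2 fold change of -0.25 (95% interval -0.55 to 0.05), so that of the 3 Cox7a genes Cox7a2l was called higher, Cox7a1 was called lower and Cox7a2 was not called. Cox8a had a log2 fold change of 0.04 (95% interval -0.32 to 0.40), and the muscle form Cox8b did not exceed 0.280 CPM.

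Among complex IV genes that averaged 10 CPM or more, the 3 with the largest log2 fold changes were Cox7a2l, Cox6a1 and Cox5b (0.19, 95% interval -0.10 to 0.49), and the 3 with the smallest were Cox6c (-0.34, 95% interval -0.61 to -0.08, edgeR adjusted p = 0.0743), Ndufa4 and Cox7a2. Cox6c, a small membrane subunit, stood at 49.1, 53.9, 51.8 and 59.7 CPM in Tim-4+ and 51.0, 67.9, 68.7 and 88.9 CPM in Tim-4- TAMs. Ndufa4 ran from 35.3 to 63.3 CPM in Tim-4+ and from 41.9 to 96.5 CPM in Tim-4- TAMs, the highest being pair 779 (log2 -0.27, 95% interval -0.81 to 0.27). Its hypoxia-induced paralog Ndufa4l2 was found almost only in pair 783, with 177 counts in the Tim-4+ and 322 in the Tim-4- library, beside 14 counts in the Tim-4+ library of pair 779, 1 count in the Tim-4- library of pair 784 and 0 in the other 4 libraries. It therefore separated a pair and not the subsets.

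Of the 16 complex V subunits tested, 6 had a log2 fold change above 0. Atp5b, the catalytic beta subunit, had the highest CPM of all subunits, at 544, 655, 443 and 533 CPM in Tim-4+ and 523, 598, 471 and 612 CPM in Tim-4- TAMs (log2 -0.02, 95% interval -0.32 to 0.27). Atp5c1 (gamma), which turns inside the catalytic head, stood at 147, 133, 134 and 149 CPM in Tim-4+ and 118, 112, 112 and 135 CPM in Tim-4- TAMs. It was higher in all 4 pairs (log2 0.24, 95% interval 0.01 to 0.46) but was not called (edgeR adjusted p = 0.132). Atp5d (delta) and Atp5o, a stalk subunit, followed with 0.21 (95% interval -0.11 to 0.53) and 0.12 (95% interval -0.15 to 0.39). The central stalk is built from Atp5c1, Atp5d and Atp5e, so its 3 genes had fitted values on both sides of 0, with Atp5e alone called. Of the 3 genes for the same c subunit, Atp5g3 was called lower, Atp5g1 had 32.4 to 39.1 CPM in Tim-4+ and 32.9 to 84.4 CPM in Tim-4- TAMs (log2 -0.42, 95% interval -0.88 to 0.03), and Atp5g2 was read at 1.29 to 2.42 CPM (log2 0.12, 95% interval -0.48 to 0.72). For Atp5g2, 38.3% of the 50-base exon words also occur in another gene, so its level is uncertain.

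Levels between genes were compared per kilobase of annotated exon (CPM per kb, all 8 libraries). The highest means over both subsets were Ndufa1 for complex I (88.6 CPM per kb), Sdhd for complex II (64.7), Uqcr11 for complex III (79.5), Cox6a1 for complex IV (269) and Atp5b for complex V (129). In complex IV, Cox8a followed Cox6a1 at 242 CPM per kb. In Tim-4+ TAMs Cox6a1 (294 ± 31.8) stood above Cox8a (240.2 ± 16.6) by more than either SD (n = 4). In Tim-4- TAMs the 2 did not differ beyond their spread (243 ± 76.7 and 243 ± 87.7, SD, n = 4). In complex I, Ndufa1 (97.0 ± 13.5 in Tim-4+, 80.1 ± 24.1 in Tim-4-) was above Ndufa2 (74.7 ± 7.73) in Tim-4+ TAMs and below it (90.4 ± 22.5) in Tim-4- TAMs. In complex III, Uqcr11 (82.1 and 76.9 CPM per kb in Tim-4+ and Tim-4- TAMs) was within its spread of Uqcrh in both subsets (83.0 and 67.1) and of Uqcr10 in Tim-4- TAMs (78.4), so the order at the top of both complexes changed with the subset. Ndufa1, a small membrane subunit encoded on the X chromosome, was itself not called (log2 0.31, 95% interval -0.05 to 0.67), nor was Uqcr11 (log2 0.11, 95% interval -0.20 to 0.42). The 12 assembly factors lay below these top subunits, with at most 10.9 CPM per kb (Ndufaf8). Some tested subunits lay in the same range, such as Ndufab1 (1.45) and Atp5s (1.51). Exon length here joins all annotated exons of a gene, so levels between genes also depend on the annotation.

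**Figure D3:**
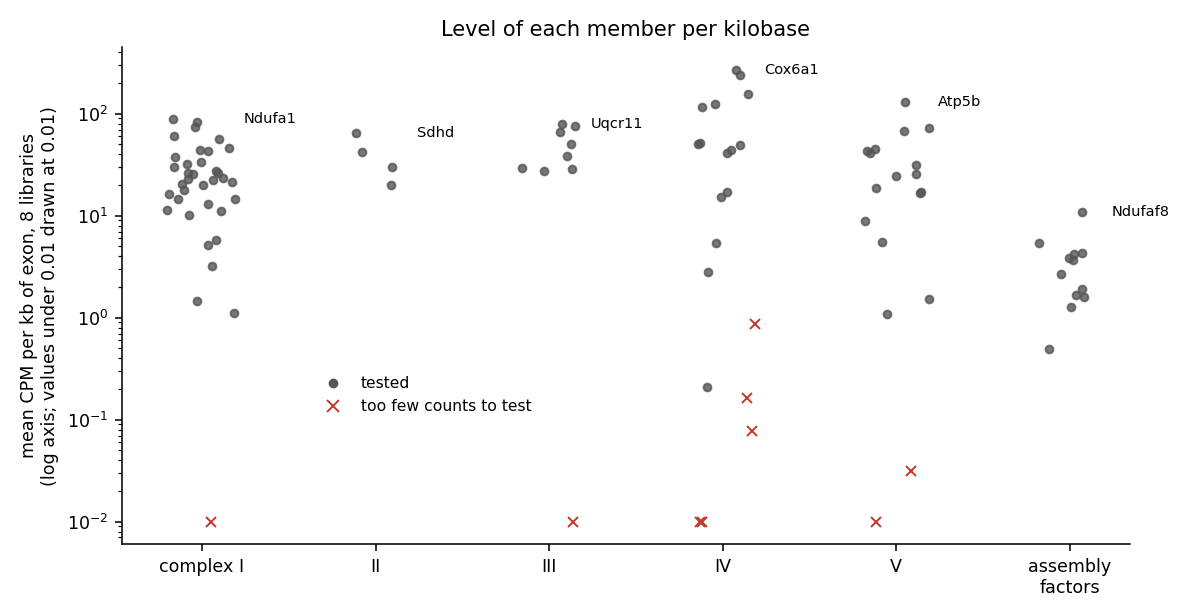
Mean level of each member per kilobase of exon over the 8 libraries, on a log axis, by complex, with the highest member named and values under 0.01 drawn at 0.01. The 9 members with too few counts to test (crosses) all sit below 1 CPM per kb, and in complexes I, III and V they lie under every tested subunit.

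The 9 subunits without enough counts fell into separate kinds. Tissue forms made up 5 of them, namely Cox4i2, Cox7b2, Cox8b, Cox8c and Ndufa4l2, and Cox8c had 0 counts in every library. A second Ensembl gene named Atp5o, which overlaps the main Atp5o gene, also had 0 counts. The other 3 are needed by every respiring cell. Ndufs3, a core complex I subunit, had 8 counts in the Tim-4- library of pair 783 and 0 elsewhere. Uqcrc1, a core protein of complex III, had 0 to 3 counts per library, and Atp5a1, the catalytic alpha subunit of ATP synthase, 0 to 11 counts. Such a value is listed at or near 0 and is not read here as absence, since some neighbors within 50 kb were low as well. Whether those neighbors are expressed in these cells is not known here. Around Ndufs3 (chromosome 2), Kbtbd4 had 15 and Celf1 9 counts over all 8 libraries, against 29846 for Mtch2. Next to Uqcrc1 (chromosome 9), Slc26a6 and Tmem89 had 0 and Ucn2 10 counts, against 546 for Col7a1 and 23182 for Pfkfb4. Next to Atp5a1, Haus1 had 0 and Pstpip2 6 counts. The reason was not tested.

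With TMM factors edgeR called 0 of the 12 assembly factors, against 17.4% of all genes (0 at an unadjusted p under 0.05, against 33.6%). DESeq2 also called 0, against 26.8% of all genes. In the TMM fit 10 of the 12 had a log2 fold change below 0, as had 8444 of all 16861 genes. With total counts edgeR called 4 of the 12 lower, where 29.1% of all genes were called lower. Of the 12, Ndufaf7, a methyltransferase that acts on complex I, and Sdhaf2, which attaches the flavin to Sdha, averaged at least 10 CPM. Ndufaf7 stood at 17.7, 10.7, 15.1 and 15.7 CPM in Tim-4+ and 18.8, 11.9, 15.1 and 16.8 CPM in Tim-4- TAMs (log2 -0.08, 95% interval -0.36 to 0.20). Sdhaf2 stood at 27.2, 32.1, 28.2 and 30.9 CPM against 29.3, 32.6, 29.6 and 34.9 CPM (log2 -0.09, 95% interval -0.33 to 0.14). Both followed the pair more closely than the subset.

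The pairs pulled in different directions. The median log2 ratio of the complex I subunits was 0.18 in pair 793 and 0.24 in pair 784, but -0.10 in pair 783 and -0.32 in pair 779, while the median over all genes lay between -0.01 and 0.02 in every pair. For complex IV the 4 values were 0.19, 0.14, -0.05 and -0.33, and for complex V 0.09, -0.01, -0.13 and -0.27. Complex II had -0.08, 0.21, -0.24 and -0.20, and complex III -0.12, 0.17, -0.16 and -0.18. In each of the 5 complexes pairs 783 and 779 were thus below 0, and pair 793 was above 0 in complexes I, IV and V only. The SD of the pair medians, 0.15 to 0.26, exceeded the size of the median fold change of every complex.

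**Figure D4:**
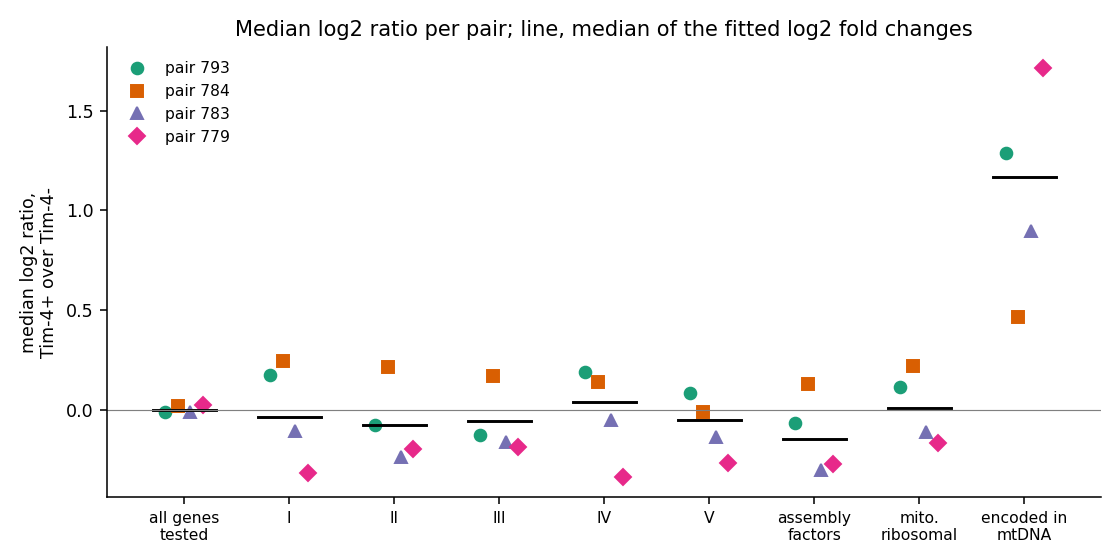
Median log2 ratio (Tim-4+ over Tim-4-) in each of the 4 pairs (symbols) and median of the fitted log2 fold changes (black lines), for all genes tested, each complex, the assembly factors, mitochondrial ribosomal proteins and the 13 protein genes of mitochondrial DNA. The nuclear groups straddle 0 and the mitochondrial DNA group lies above 0 in all 4 pairs.

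The low value of pair 779 came with a high Tim-4- library. For 71 of the 78 subunits (91.0%) the highest of the 4 Tim-4- values was that of pair 779, compared with 27.8% of all genes. Its level exceeded the mean of the other 3 Tim-4- libraries by a median log2 difference of 0.50 over the subunits and 0.03 over all genes. The share was 34 of 35 in complex I, 2 of 4 in complex II, 7 of 8 in complex III, 13 of 15 in complex IV, 15 of 16 in complex V, 7 of 12 among assembly factors and 40 of 75 among mitochondrial ribosomal proteins. OXPHOS genes are short, with a median of 1578 exon bases against 3719 for all genes, and among protein-coding genes under 1000 exon bases that are no subunit the share was 47.8% (129 of 270). Among the 59 subunits of at least 1000 exon bases it was 91.5%. The same library also had the highest summed tumor and mesothelial markers (1937 CPM, against 412 to 1271 CPM in the other 3), and its lane 2 set aside 3153643 reads as not unique against 10020232 in lane 1. The part of these values in the result was not tested.

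**Figure D5:**
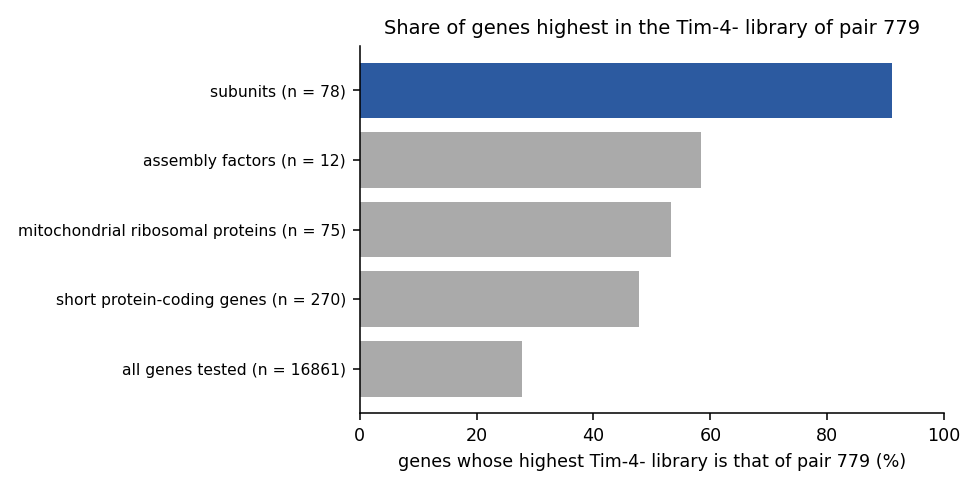
Share of genes (%, bars starting at 0) whose highest Tim-4- level was in the library of pair 779, for all genes tested, other protein-coding genes under 1000 exon bases, mitochondrial ribosomal proteins, assembly factors and subunits. The subunits reach 91.0% and all genes 27.8%.

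The 13 protein genes of mitochondrial DNA, whose products join the same complexes, stood apart from the nuclear subunits. Their median log2 fold change was 1.17, with pair medians of 1.29, 0.46, 0.90 and 1.71. Of these genes, 11 of 13 were called higher in Tim-4+ TAMs, against 8.97% of all genes. The other 2 were mt-Nd4l, with 11 to 59 counts per library, and mt-Co3, with 94 to 584 counts and a lower value in Tim-4+ TAMs in pair 779. Counts were also low for mt-Co2 (93 to 494) and mt-Nd3 (43 to 137), against 303822 or more for mt-Co1. By complex the medians were 1.17 for the 7 complex I genes, 1.06 for mt-Cytb of complex III, 0.88 for the 3 complex IV genes and 1.22 for the 2 complex V genes, beside nuclear medians of -0.03, -0.05, 0.04 and -0.05. Summed over the 13 genes, the level was 14350 to 32912 CPM in Tim-4+ and 9984 to 11135 CPM in Tim-4- TAMs, without overlap, whereas the 87 nuclear subunits summed to 4396 to 5126 CPM in Tim-4+ and 4422 to 6122 CPM in Tim-4- TAMs. Pair 779, which had the highest mitochondrial DNA median, had the lowest nuclear median in complexes I, III, IV and V. The difference between the 2 sets was not tested. Leaving the mitochondrial genes out of the TMM factors gave the same 7 calls among the subunits.

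Other nuclear genes that make or feed the complexes are given by their counts, to be read against the 17.4% of all genes that were called. Among 75 tested mitochondrial ribosomal proteins, which translate the mitochondrial messages, 4 were called higher and 0 lower, with a median of 0.01. Of other assembly factors, 0 of 8 were called for complex I (0 with an unadjusted p under 0.05), 1 of 6 for complex III (Uqcc3, log2 0.50 ± 0.14, edgeR adjusted p = 0.041), 1 of 18 tested for complex IV (Pet100, log2 0.62 ± 0.16, edgeR adjusted p = 0.037) and 0 of 3 for complex V (0 with an unadjusted p under 0.05). Uqcc3 averaged 19.3 ± 2.13 CPM in Tim-4+ and 13.8 ± 2.82 CPM in the Tim-4- libraries, and Pet100 14.96 ± 2.34 and 9.81 ± 2.18 CPM (SD, n = 4). Of 7 tested electron carriers and entry enzymes, 1 was called, Sqor, which feeds electrons from sulfide to ubiquinone (75.2 ± 9.36 CPM in Tim-4+, 54.0 ± 4.82 CPM in Tim-4-, log2 0.47 ± 0.11, edgeR adjusted p = 0.024). Cytochrome c (Cycs) had a log2 fold change of 0.29 (95% interval -0.05 to 0.62), and of 11 ubiquinone synthesis genes 0 were called (2 with an unadjusted p under 0.05).

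Of 10 regulators of mitochondrial gene expression, 1 was called. Tfam, which packages mitochondrial DNA and takes part in its transcription, had its lower value in Tim-4+ TAMs in all 4 pairs. It stood at 11.8 ± 0.925 CPM against 18.4 ± 2.69 CPM (SD, n = 4, log2 -0.63 ± 0.14, edgeR adjusted p = 0.023), opposite in sign to the mitochondrial DNA genes. Nrf1 (log2 0.08, 95% interval -0.17 to 0.33), Esrra (-0.09, 95% interval -0.41 to 0.23) and Pprc1 (0.14, 95% interval -0.14 to 0.42) were not called, and neither was the coactivator Ppargc1a, which averaged only 0.784 CPM in Tim-4+ and 1.72 CPM in Tim-4- TAMs (log2 -1.22, 95% interval -2.32 to -0.12, edgeR adjusted p = 0.114).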

How the data were processed

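RNA was measured in 8 libraries (4 Tim-4+, 4 Tim-4-). Per the study's methods, ribosomal RNA was depleted and stranded libraries were sequenced with paired reads. The authors deposited counts per gene and lane as whole numbers, not normalized; the submitters' processing notes name FastQC 0.11.3, TopHat2 2.0.13, Cufflinks and Cuffdiff 2.2.1 with GRCm38, while the methods text names a human build, and the counting program and its use of strand are not given in the sources used here. Overlapping genes and near-identical copies are therefore uncertain.

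Identifiers were matched to GRCm38 gene models (98.4% found), and the 2 lanes of a library were summed. In lane 1 of Tim-4- library 793, rows are gene symbols, and they were joined by their order, since 96.9% of 53618 symbols matched. Rows for reads on no gene were left out. Genes that reached 10 counts in 4 or more of 8 libraries were fitted in edgeR 4.0.16 (R 4.3.3, TMM factors, robust quasi-likelihood test, pair as a block), with Benjamini-Hochberg adjustment over 16861 genes. SE is the log2 fold change divided by the root of F. Pair ratios used a prior count of 2. Libraries of a pair number deviated together from their group means (r = 0.28 to 0.50 in all 4 pairs), and the study describes the subsets as paired. Where nothing says that pairs are separate animals, p-values measure only the spread between these samples. In simulated counts for this comparison, 200 of 16861 genes were changed, with the spread of each gene taken from the trend over genes. There a log2 change of 1 was recovered for 93% of changed genes with at least 10 CPM and one of 0.5 for 10%. In the data 17.4% of genes were called, so the adjusted p was less strict there and these shares do not carry over directly. DESeq2 1.42.0, other scalings, filters, lanes and pairs left out were tried.

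Named genes were the complex II subunits, isoform groups, the 3 highest and 3 lowest log2 fold changes with at least 10 CPM in a complex (2 and 2 in complex III and the assembly factors), the highest level per kb in each complex, calls of at least 2-fold and members with too few counts. Other named genes were picked after their values were seen. Members and lists were chosen with earlier results of these data known. Values of 1 member are not reported here.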

Additional observations from a re-analysis of the deposited data

Results flagged for a closer look

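In 18 of 102 groups of 4 values examined, the highest or lowest value lay far from the other 3 by Dixon's test, which by chance marks about 1 group in 20.

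In Tim-4- TAMs the library of pair 779 was far above the others for Ndufs6 (28.2 CPM), Uqcr10 (67.4 CPM), Cox5b (101 CPM), Cox6a1 (251 CPM), Cox7a2 (64.6 CPM), Cox8a (232 CPM) and Atp5j2 (89.5 CPM). In Tim-4+ TAMs the library of pair 783 was far below the others for Ndufs6 (23.8 CPM), Cox5b (73.2 CPM) and Atp5e (33.4 CPM) and far above them for Cox6a2 (4.46 CPM). Ndufa4l2 stood apart in pair 783 in both subsets, at 3.23 CPM in Tim-4+ and 4.10 CPM in Tim-4- TAMs.

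Near the floor, single libraries stood out for Ndufs3 (0.102 CPM, Tim-4-), Cox4i2 (0.140 CPM, Tim-4-), Cox7b2 (0.0208 CPM, Tim-4+) and Cox8b (0.0365 CPM, Tim-4+). The last 2 are under the level of 3 counts. The median log2 ratio of the complex III subunits was far higher in pair 784 (0.17) than in the other pairs.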

How the results depend on the processing

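Depth limits the members near the floor of 3 counts, and 4 pairs limit small changes. Without the replicate block (no pairing) 0 subunits were higher and 0 lower. With total counts 0 were higher and 35 lower, and the medians were -0.39 (I), -0.43 (II), -0.41 (III), -0.32 (IV), -0.41 (V) and -0.51 (assembly factors), with all genes at -0.36. DESeq2 called 4 higher and 7 lower (26.8% of all genes), and lane 2 alone 2 higher and 6 lower (17.8%), without Ndufc1 and Atp5g3. The correction for GC content and length gave 6 higher and 6 lower (23.7%), without Atp5j2, with all genes at 0.09. A 2-fold minimum left 0 higher and 1 lower. Leaving out 1 pair gave 0 to 1 higher and 0 to 2 lower, and medians of -0.12 to 0.10 (I), -0.06 to 0.10 (IV) and -0.12 to 0.0057 (V), which changed sign. The cause of these shifts was not tested. Of the counts and medians under all alternatives, 109 stayed near their value and 21 moved. Of the gene results, 490 kept their direction and side of the threshold, 25 passed it newly, 36 no longer passed it and 31 changed sign.

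Under total counts these log2 values fell below 0: Ndufa1 -0.049, Ndufb3 -0.016, Ndufs6 -0.010, Sdha -0.23, Uqcr11 -0.25, Uqcrb -0.081, Uqcrh -0.034, Cox5b -0.16, Cox6a1 -0.042, Cox6b1 -0.31, Cox8a -0.32, Atp5c1 -0.12, Atp5d -0.14, Atp5g2 -0.24 and Atp5o -0.24. Under the GC and length correction Sdhb was 0.13, Cox4i1 0.0051, Cox6b1 -0.030, Atp5b 0.047 and Sdhaf2 0.0051. Sdhb was 0.00097 with lane 2 alone, and Cox8a was -0.019 without the replicate block. Leaving out a pair changed the sign of Sdhb (-0.12 to 0.046), Uqcr11 (-0.041 to 0.18), Cox6b1 (-0.034 to 0.12), Cox8a (-0.069 to 0.23), Ndufa4 (-0.45 to 0.013) and Atp5b (-0.078 to 0.033).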
